A study of Mus musculus with 6 samples.

Results

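The BMP, activin and TGF-beta signalling genes were examined in retinas of postnatal day 4 mice. Members were taken by gene symbol: Bmp and Gdf ligands, Inhb activin subunits, Tgfb ligands, the Bmpr, Acvr and Tgfbr receptors, Smads, the antagonists Nog, Chrd, Grem, Fst and Fstl, and Bambi and Eng. This gave 78 probe sets of 51 genes, out of 22626 probe sets that were not controls and 12393 genes with a symbol of their own. A further probe set, shared by Cers1 and Gdf1, was not used. Retinal RNA came from 3 Nhlh2 knockout and 3 wildtype mice of a mixed C57/129 background, hybridised singly to Affymetrix Mouse 430A 2.0 arrays, and mice with the same replicate number were littermates. Nhlh2 is a helix-loop-helix transcription factor. No probe set is paired with Nhlh2 in the table used here, so the genotypes rest on the labels. Nothing in the labels names the part of the gene that was deleted or a promoter for it.

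BMPs and GDFs, activins and TGF-betas are dimeric secreted ligands of a single family. A ligand brings together type II and type I receptor kinases, and the type I receptor phosphorylates receptor-regulated Smads. Smad1, Smad5 and Smad9 serve BMP signals, Smad2 and Smad3 serve activin and TGF-beta signals, and both sets join Smad4 to enter the nucleus. In the eye, BMP signals are known for dorsal patterning of the retina and for lens and ciliary body formation, and TGF-beta2 for limiting progenitor proliferation.

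All 9 measured retinal markers were above the array median in all 6 arrays. Knockout replicate 2 stood apart. Its Actb signal from the 3′ end was 274 times that from the 5′ end, against 1.38 to 1.56 in the other 5 arrays, and for Gapdh this ratio was 15.6 against 0.698 to 0.838. Its highest Spearman correlation with any array was 0.670, against at least 0.947 among the others, and its signals had to be multiplied by 7.79 to reach the common level. Lens markers summed to 9294 in wildtype replicate 1, with 12 of 15 above the array median, against 159 to 691 elsewhere. In bulk RNA, fewer cells of a type and less RNA per cell cannot be told apart.

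Promoter sequence of RefSeq (GRCm38.p6), from 250 bases before to 50 bases after the transcription start, was matched for 36 of the 51 genes. For 4 of them several starts are listed, and the first was used. The 4 promoters shown are those of Tgfb2, Tgfbr1, Inhba and Smad6. Tgfb2 had the only well-measured probe set whose groups did not overlap. Tgfbr1 had the type I receptor probe set of highest wildtype signal, 1420895_at, and Inhba was a dim ligand whose groups did not overlap. Smad6 was the only gene among the 36 matched whose promoter held the Smad palindrome. Members without a matched promoter were not searched. Capitals mark GTCTAGAC (a palindrome bound by Smads), GGCGCC (a GC-rich Smad element), CAGAC (the short Smad element) and TATAAA (the letters of the TATA box). Each was searched on both strands and at any distance from the start.
Tgfb2 promoter, chr1:186705940-186706239, minus strand: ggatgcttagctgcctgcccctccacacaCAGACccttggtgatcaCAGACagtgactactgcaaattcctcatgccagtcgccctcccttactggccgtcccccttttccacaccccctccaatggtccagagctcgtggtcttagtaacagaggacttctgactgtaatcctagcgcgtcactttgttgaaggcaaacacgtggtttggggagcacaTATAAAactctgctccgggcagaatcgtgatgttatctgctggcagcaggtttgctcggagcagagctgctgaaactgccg
Tgfbr1 promoter, chr4:47352972-47353271, plus strand: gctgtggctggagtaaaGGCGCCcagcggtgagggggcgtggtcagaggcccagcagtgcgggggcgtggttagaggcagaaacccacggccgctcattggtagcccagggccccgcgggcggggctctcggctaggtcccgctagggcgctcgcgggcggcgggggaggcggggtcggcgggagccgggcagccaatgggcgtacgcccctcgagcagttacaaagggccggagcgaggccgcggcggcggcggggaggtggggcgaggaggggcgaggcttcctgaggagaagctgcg
Inhba promoter, chr13:16011601-16011900, plus strand: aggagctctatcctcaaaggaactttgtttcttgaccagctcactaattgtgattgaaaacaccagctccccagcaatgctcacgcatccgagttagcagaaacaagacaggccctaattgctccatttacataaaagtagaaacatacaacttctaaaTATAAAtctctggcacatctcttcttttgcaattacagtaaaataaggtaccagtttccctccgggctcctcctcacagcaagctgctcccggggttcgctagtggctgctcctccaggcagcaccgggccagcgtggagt
Smad6 promoter, chr9:64022010-64022309, minus strand: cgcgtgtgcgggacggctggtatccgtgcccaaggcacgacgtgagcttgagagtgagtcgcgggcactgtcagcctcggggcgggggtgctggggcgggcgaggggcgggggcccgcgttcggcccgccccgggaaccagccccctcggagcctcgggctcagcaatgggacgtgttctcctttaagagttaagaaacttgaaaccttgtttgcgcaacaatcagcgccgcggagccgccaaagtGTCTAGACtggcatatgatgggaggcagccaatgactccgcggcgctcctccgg
The TATA box of Tgfb2 began 31 bases before the start and its CAGAC elements 204 and 221 bases before it. In Inhba the TATAAA began 91 bases before the start, further off than in Tgfb2, and whether it acts as a TATA box was not tested. In Smad6 the palindrome began 4 bases before the start and so ran across it.

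The motifs were not all more common among members than among all promoters of the same length. GTCTAGAC was in 1 of 36 member promoters (2.78%) against 0.211% of 27025 promoters. GGCGCC was in 9 (25%) against 12%, CAGAC in 16 (44.4%) against 49.7%, and TATAAA in 7 (19.4%) against 14.2%. Member promoters were also richer in G and C, with a median of 65.8% against 52.7% over all promoters, and its part in the GGCGCC share was not tested. Among the 11 matched genes above the array median in all wildtype arrays the median promoter held 31 CpG dinucleotides, among the 23 above it in none it held 23, and over all promoters 7. The CpG counts of these 11 ran from 10 for Tgfb2 to 54 for Acvr2a, and those of the 23 from 2 for Bmp15 to 42 for Gdf10, so they overlapped widely. These shares describe letters in a window and not binding.

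In wildtype retina the BMP and GDF ligands were mostly dim. For each gene, shown by its probe set of highest mean, the signal was set against the median of its own array. Of 51 genes, 15 were above the median in all 3 wildtype arrays (29.4%, against 51.2% of all 12393 genes), 4 in some and 32 in none. Signals are given in intensity units after each array was scaled to a trimmed mean of 200, which placed the array medians between 60.4 and 71.2. Signals of different probe sets depend on their probes, so a gene below the median is dim on this array and not shown to be absent.

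**Figure D1:**
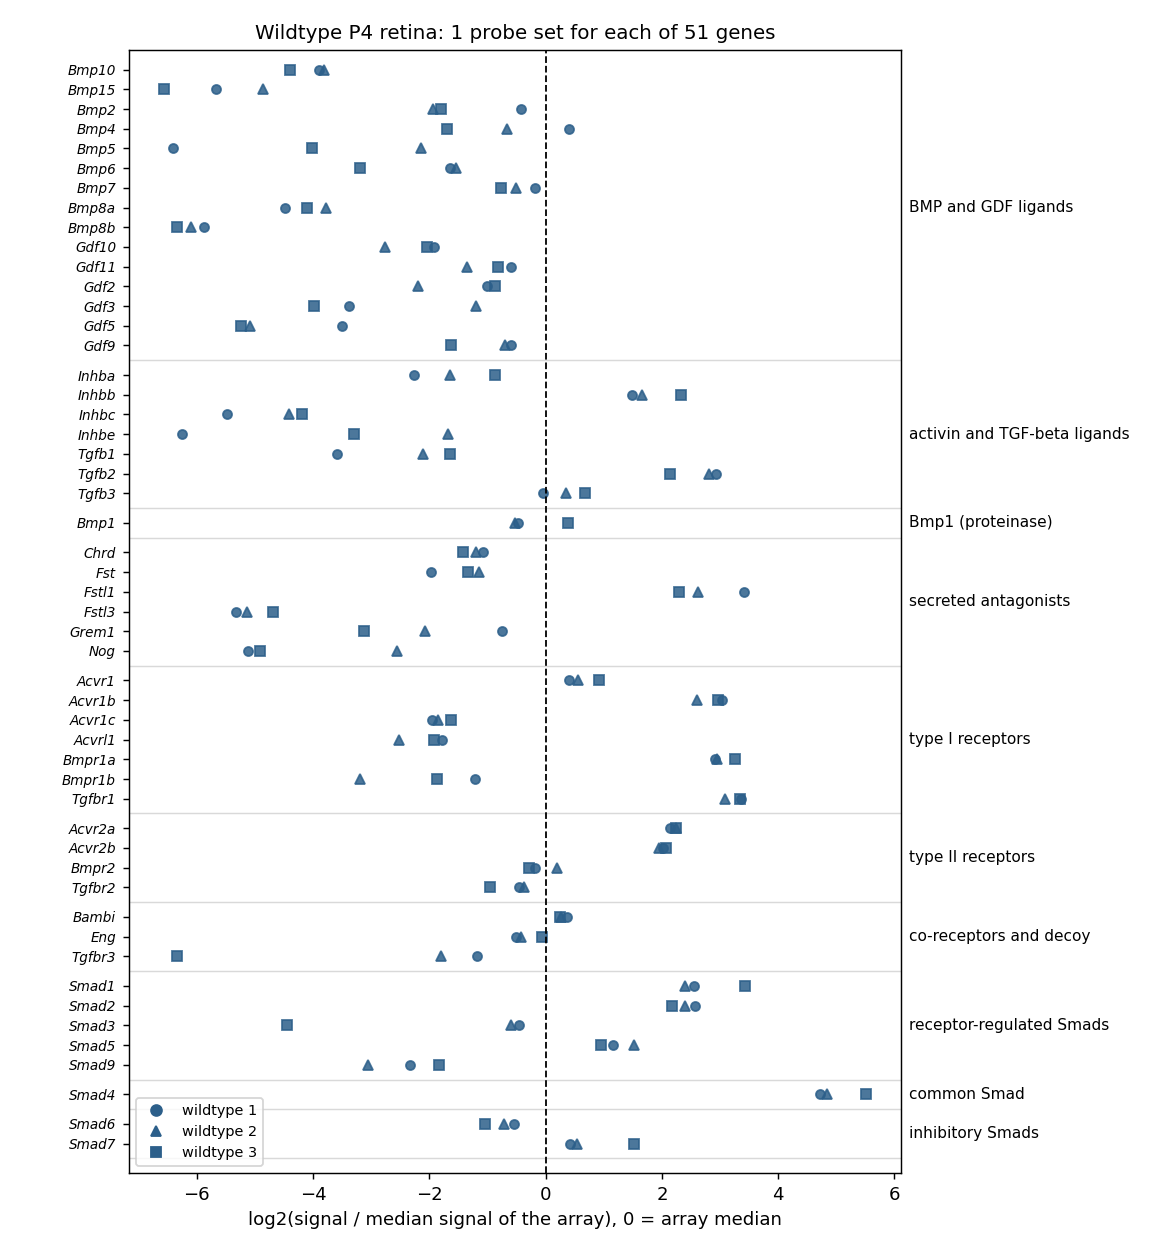
Signal of each of the 51 genes in the 3 wildtype arrays, as log2 of the signal over the median of the array (x axis), by gene and role (y axis). All BMP and GDF ligands but Bmp4 in wildtype replicate 1 lie left of the dashed median line, whereas Smad4, Smad1, Tgfbr1, Bmpr1a, Acvr1b, Fstl1 and Tgfb2 lie right of it in all 3 arrays. Positions of different genes are not a ranking of transcript amounts.

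None of the 15 BMP and GDF ligand genes was above the median in all wildtype arrays. Bmp4, the dorsal retinal ligand, was above it in 1, with 90.7, 45.1 and 18.8 in wildtype replicates 1, 2 and 3. Bmp2 had 51.2, 18.6 and 17.5. Both were brightest in wildtype replicate 1, the array with the lens signal. That array also had 4 of 8 ciliary body and mesenchyme markers above the median, against 0 or 1 in the others. The part of either signal in this was not tested. Bmp5, Bmp6, Bmp7, Bmp8a, Bmp8b, Bmp10, Bmp15, Gdf2, Gdf3, Gdf5, Gdf9, Gdf10 and Gdf11 were below the median in every wildtype array, with means from 0.991 for Bmp8b to 48.9 for Bmp7. Bmp1, named with the BMPs but a procollagen proteinase, was above the median in wildtype replicate 3 alone, with 49.6, 49.3 and 79.7.

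Among the 7 activin and TGF-beta ligand genes, Tgfb2 and Inhbb were above the median in all wildtype arrays. Tgfb2 had 526, 499 and 268 on its brightest probe set, or 431 ± 142 (SD, n = 3). Inhbb, the beta-B subunit of activin and inhibin, had 193, 225 and 306, or 241 ± 58.1 (SD, n = 3). Its other probe set, 1426859_at, had 67.4, 77.4 and 19.0 and was above the median in 1 wildtype array. Tgfb3 was above the median in 2 arrays with 67.2, 90.3 and 98.0. Inhba, Inhbc, Inhbe and Tgfb1 were below it in all, with means of 23.5, 2.74, 9.79 and 13.9.

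Of 6 secreted antagonists, only Fstl1, a follistatin-like glycoprotein, was above the median. It had 734, 439 and 302 in wildtype replicates 1 to 3, again highest in the array with the lens and the mesenchymal signal. Its other probe set had 393, 148 and 342, a different order, so the gene's order among the wildtype mice depends on the probe set. The BMP antagonists Nog, Chrd and Grem1 and the activin antagonists Fst and Fstl3 were below the median in all, with means from 2.03 for Fstl3 to 28.8 for Chrd.

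Above the median in all wildtype arrays were 4 of 7 type I receptors (57.1%), 2 of 4 type II receptors (50%) and 1 of 3 co-receptors (33.3%), close to the 51.2% of all genes for both receptor types. Of the type I receptors, Bmpr1a for BMPs (551 ± 33.4), Acvr1b for activin (492 ± 68.1), Tgfbr1 for TGF-beta (644 ± 58.0) and Acvr1 (104 ± 11.97; SD, n = 3 for each) were above the median in all wildtype arrays. Each of these genes also had a dimmer probe set that was not above it in all of them. For Acvr1, probe sets 1416786_at and 1416787_at were below the median in every wildtype array. Bmpr1b, Acvr1c and Acvrl1, the last best known from endothelium, were below it in all, with means of 18.1, 19.2 and 16.2. Of the type II receptors, Acvr2a had 303, 336 and 290 and Acvr2b 280, 275 and 257, and the wildtype values of each differed little on these probe sets. The other Acvr2a probe set, 1451004_at, had 74.7, 70.7 and 37.4 and so differed more. Bmpr2 was at the median, with 60.7, 81.7 and 50.2, and Tgfbr2, the type II receptor for TGF-beta, was below it in all with 50.1, 55.0 and 31.5. Of the co-receptors, the endothelial Eng (53.4 ± 5.15) and Tgfbr3 (17.1 ± 15.0) were below it, and the decoy receptor Bambi was just above it with 82.3 ± 8.91 (SD, n = 3 for each). Endothelial and pericyte markers were above the median for 3 of 13 genes in each of these arrays.

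Smad4, the partner of all receptor-regulated Smads, had 1819, 2051 and 2783 on its brightest probe set. The BMP Smads Smad1 (403, 376 and 655) and Smad5 (153, 204 and 118) and the activin and TGF-beta Smad Smad2 (410, 375 and 277) were above the median in all wildtype arrays. Smad9, with 13.1 ± 4.29, and Smad3, with 33.4 ± 26.5 (SD, n = 3 for each), were below it in all. Smad7, an inhibitory Smad that blocks type I receptors, had 92.1, 104 and 176, whereas Smad6, the inhibitory Smad that acts mainly on BMP signals, had 47.0, 43.2 and 29.7 and stayed below the median.

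The choice of threshold and probe set mattered for these statements. Above the 25th percentile of the array instead of the median, 30 of 51 genes passed in all wildtype arrays, 13 in some and 8 in none. Of the BMP and GDF ligands, 6 of 15 passed it. The mean over a gene's plain probe sets was lower than its brightest probe set for Tgfbr1 (359 against 644), Bmpr1a (193 against 551), Acvr1b (252 against 492), Acvr2a (185 against 309), Smad4 (1255 against 2218) and Bmp1 (32.5 against 59.5). It was also lower for other genes, among them Inhbb (148 against 241) and Acvr1 (53.0 against 104). For Acvr1 the mean fell below the array medians.

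For the comparison of genotypes, a probe set had to be above the array median in at least 3 of 6 arrays, which kept 29 member probe sets of 17 genes and 11610 in all. No BMP or GDF ligand passed. With limma and Benjamini-Hochberg adjustment over all of them, 0 probe sets passed an adjusted p of 0.05 (0%), so 0 members did, and 11 of 11610 and 0 members had an unadjusted p under 0.05. The smallest adjusted p over all probe sets and over the members was 0.75. Without knockout replicate 2, again 0 passed, with 84 in all and 0 members at an unadjusted p under 0.05. The median change of the members, knockout minus wildtype on log2(scaled signal + 1), was -0.31 (8 higher, 21 lower), beside -0.19 over all probe sets tested. Leaving out knockout replicate 2, it was 0.02 (15 higher, 14 lower), beside -0.01 over all.

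**Figure D2:**
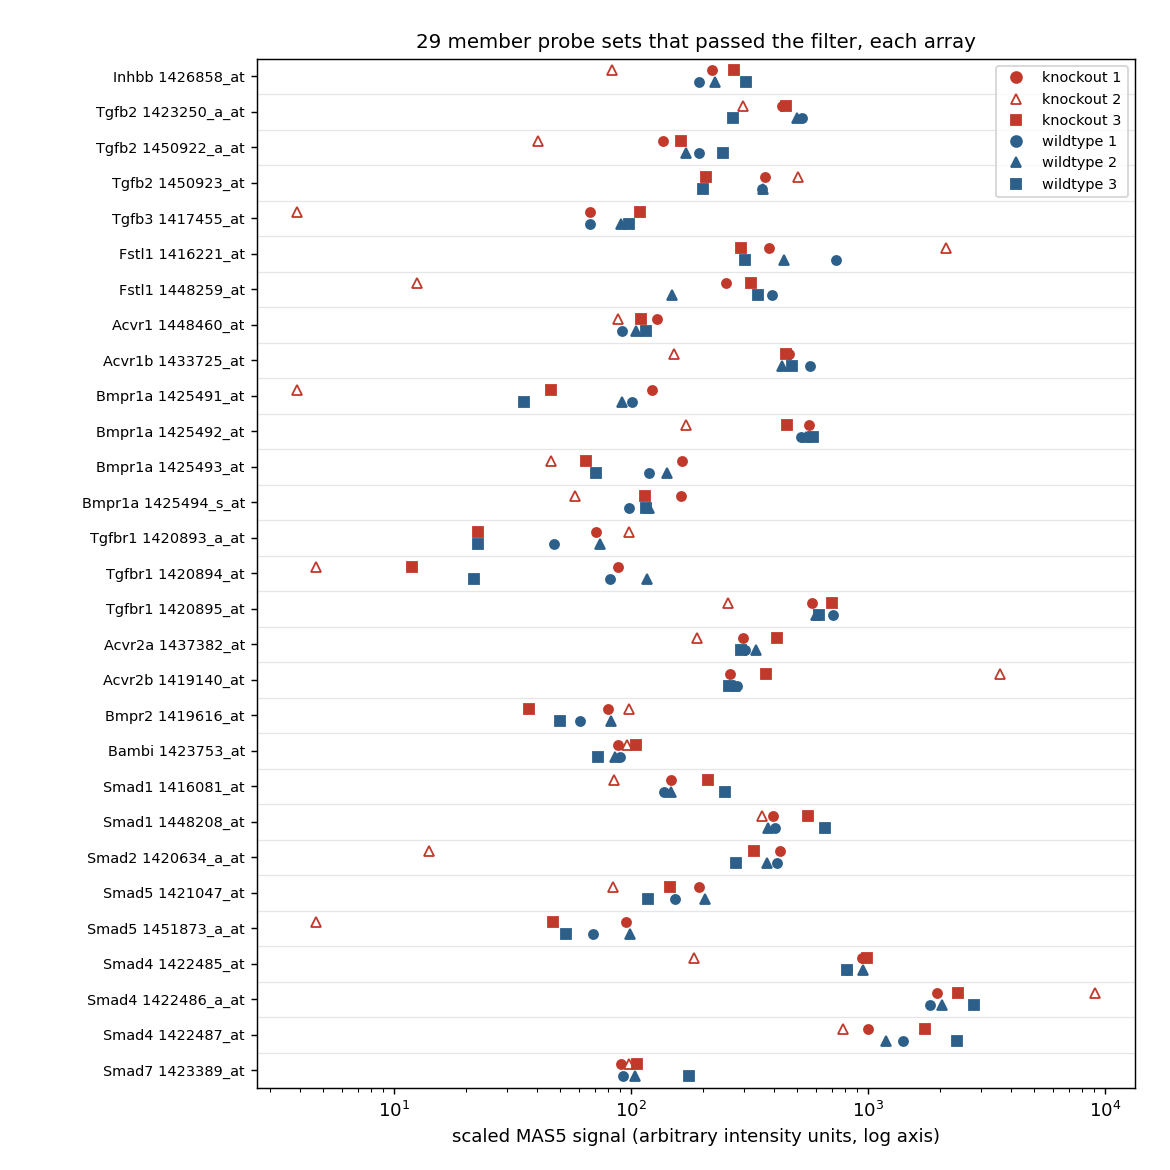
Scaled signal (x axis, log scale) of the 29 member probe sets that passed the filter (y axis), with the 3 knockout arrays in red above the 3 wildtype arrays in blue. Knockout replicate 2 (open triangles) lies outside the range of the other 5 arrays in 26 of the 29, below it in 20 and above it in 6.

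The large differences between littermates were those of knockout replicate 2. It was below all other 5 arrays for 20 of the 29 probe sets, above them for 6 and inside their range for 3. Its differences from its littermate had a median size of 1.44 on the log2 scale, and 11 of 29 (37.9%, against 30.3% of all probe sets tested) were at least 2. In pair 1 the median size was 0.27 and in pair 3 it was 0.24, with 0 of the 29 at 2 or more in either. Over all probe sets tested these sizes were 1.29 in pair 2, 0.14 in pair 1 and 0.23 in pair 3. The high ratios of 3′ to 5′ signal of knockout replicate 2 go with these differences, and their part was not tested.

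**Figure D3:**
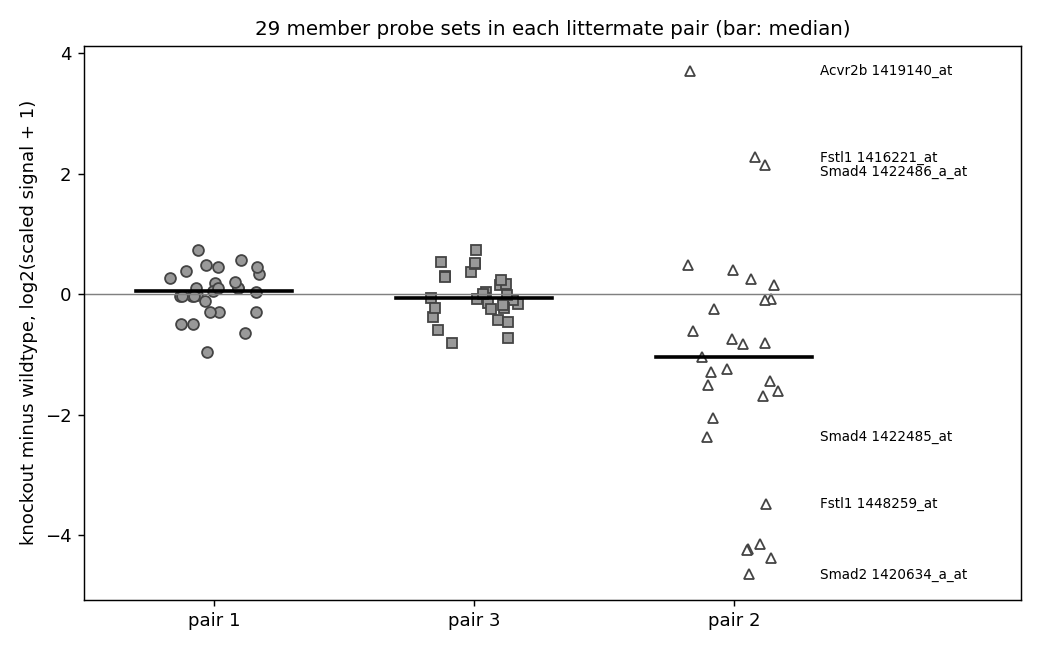
Knockout minus wildtype on log2(scaled signal + 1) (y axis) for the 29 member probe sets in littermate pairs 1, 3 and 2 (x axis), with bars at the medians of 0.05, -0.07 and -1.04. Pairs 1 and 3 lie between -0.95 and 0.74, and pair 2 lies between -4.65 for Smad2 and 3.70 for Acvr2b, with probe sets of Smad4 and of Fstl1 on both sides of 0.

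Of the 7 genes with several tested probe sets, 4 had probe sets of both signs in pair 2, as 4 had in pair 1 and 5 in pair 3, but in pair 2 they lay further apart. All tested probe sets of Bmpr1a, Smad1 and Smad5 were lower in knockout replicate 2 than in its littermate. For Smad4, knockout replicate 2 had 9052 on probe set 1422486_a_at against 2051 in its wildtype littermate, but 185 against 953 on 1422485_at. The other knockout mice had 1953 and 2392 on the first probe set and 943 and 990 on the second, within or near the wildtype values of 1819 to 2783 and 812 to 953. For Fstl1, knockout replicate 2 had 2123 against 439 on 1416221_at and 12.5 against 148 on 1448259_at. Between the 3 Smad4 probe sets the pair differences ranged over 4.50 on the log2 scale in pair 2, against 0.70 in pair 1 and 0.74 in pair 3, and for Fstl1 over 5.74, against 0.31 and 0.05. The type II receptor Acvr2b had the highest fitted change of the members, 1.37 (SE 0.98, limma adjusted p = 0.75). It had 260, 3592 and 371 in knockout replicates 1, 2 and 3 against 280, 275 and 257 in wildtype, and without knockout replicate 2 the change was 0.20 (SE 0.22). The groups overlapped, as knockout replicate 1 was among the wildtype values.

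Tgfb2 was the only gene that passed the filter with a probe set whose groups did not overlap. Probe set 1450922_a_at had 137, 40.5 and 162 in knockout replicates 1, 2 and 3, against 193, 170 and 245 in wildtype, so every knockout value was below every wildtype value. The change was -1.05 (SE 0.57, limma adjusted p = 0.75), and without knockout replicate 2 it was -0.43 (SE 0.23, limma adjusted p = 0.999). The groups of 3.57% of all probe sets tested were separated in this direction, against 1 of 29 members (3.45%), so the share was near the background. In the direction of higher knockout values, 0 of 29 were separated, against 2.65% of all. When knockout replicate 2 was left out, the same probe set alone was separated, with lower knockout values as in 5.42% of all, and 0 members had higher ones, against 5.35% of all. The other Tgfb2 probe sets did not show it. Probe set 1423250_a_at had 432, 297 and 449 in knockout and 526, 499 and 268 in wildtype mice, and 1450923_at had 366, 505 and 207 in knockout and 357, 360 and 201 in wildtype mice, both overlapping.

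Knockout was lower in all 3 pairs for 6 of 29 member probe sets (20.7%), against 14.3% of all tested, namely Smad4 1422487_at, Smad7, Acvr1b, Smad1 1448208_at, Fstl1 1448259_at and Tgfb2 1450922_a_at. It was higher in all pairs for 2 (6.9%), Tgfb2 1450923_at and Tgfbr1 1420893_a_at, against 9.69% of all. Smad7 had 90.4, 97.4 and 106 in knockout and 92.1, 104 and 176 in wildtype mice, where pair 3 differed most. Acvr1b had 462, 152 and 451 in knockout and 566, 432 and 477 in wildtype mice, with a change of -0.62 (SE 0.50), or -0.10 (SE 0.20) without knockout replicate 2. Of these 29, 0 differed by at least 0.5 on the log2 scale with the same sign in all pairs, against 0.172% of all tested with higher and 0.138% with lower knockout values.

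The remaining probe sets of smallest p differed in what set them apart. Bmpr1a 1425492_at had 561, 170 and 452 in knockout and 519, 548 and 586 in wildtype mice. Smad5 1451873_a_at had 95.1, 4.67 and 46.7 in knockout and 69.0, 99.1 and 53.0 in wildtype mice. In both, knockout replicate 2 alone was far below the wildtype values. Tgfbr1 1420894_at had 87.6, 4.67 and 11.9 in knockout and 81.2, 116 and 21.6 in wildtype mice. Knockout replicate 2 was the lowest array here too, and replicate 3 was low in both genotypes. The change was -1.69 (SE 1.12), or -0.83 (SE 0.98) without knockout replicate 2. Tgfbr1 1420893_a_at had 70.9, 98.2 and 22.5 in knockout and 47.3, 73.8 and 22.5 in wildtype mice, lowest in replicate 3 in both genotypes. Bambi had 88.0, 95.8 and 105 in knockout and 89.2, 85.6 and 72.3 in wildtype mice, overlapping through replicate 1, with a change of 0.22 (SE 0.28), or 0.23 (SE 0.20) without knockout replicate 2.

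Other probe sets that led their role among the wildtype arrays gave overlapping groups. Tgfbr1 1420895_at had 577, 256 and 701 in knockout and 711, 603 and 620 in wildtype mice. Acvr2a had 296, 189 and 411 in knockout and 303, 336 and 290 in wildtype mice. Smad1 1448208_at had 395, 356 and 556 in knockout and 403, 376 and 655 in wildtype mice, overlapping widely. Bmp4 had 19.7, 3.12 and 22.6 in knockout and 90.7, 45.1 and 18.8 in wildtype mice and did not pass the filter, and Bmp1 had 47.0, 10.1 and 81.5 in knockout and 49.6, 49.3 and 79.7 in wildtype mice. The precision depended on whether knockout replicate 2 was kept. Without knockout replicate 2, the 95% interval of the change lay within 1 log2 unit on either side of 0 for 19 of 29 member probe sets, and with all arrays for 3. With the littermate pair as a block as well as that array left out, it did for 28 of 29, with bounds from -1.07 to 0.89. The change in that fit rests on littermate pairs 1 and 3 alone. Its SEs ran only from 0.19 to 0.26, so these intervals lean mainly on the variance that limma pools over all probe sets.

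The members differed more between litters 3 and 1 than within pairs 1 and 3. In pairs 1 and 3 the difference between genotypes was under 0.5 on the log2 scale in both for 18 of 29 member probe sets. It was at least 0.5 in pair 1 for 13.8% of the members, against 6.34% of all tested. In pair 3 these shares were 24.1% and 17.1%. Between litter 3 and litter 1 the median size of the difference was 0.41 in knockout and 0.54 in wildtype mice, larger than in either of these pairs, and between wildtype replicates 1 and 2 it was 0.23. Over all probe sets tested the sizes between litters 3 and 1 were 0.33 in knockout and 0.35 in wildtype mice. The 2 differences share no array, and over the 29 member probe sets they correlated with Pearson's r = 0.77 and Spearman's rho = 0.75, against 0.67 and 0.62 over all 11610. The sign was shared by 19 of 29 (65.5%), against 73% of all. These are correlations across probe sets, which share the libraries and are not independent replicates, and litter cannot be told apart from anything else that the arrays of a number shared.

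**Figure D4:**
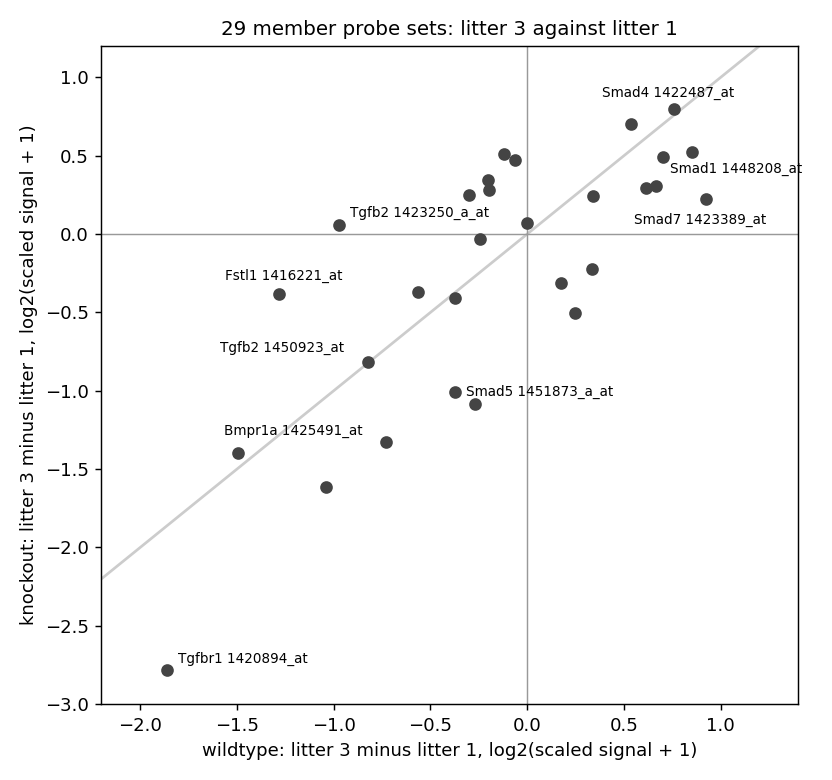
Litter 3 minus litter 1 on log2(scaled signal + 1) for the 29 member probe sets, in wildtype mice (x axis) and knockout mice (y axis), with the grey line at equal differences. Of the labelled probe sets, those of Tgfbr1, Bmpr1a and Smad5 and Tgfb2 1450923_at were lower in litter 3 in both genotypes and those of Smad1, Smad4 and Smad7 higher, while some other probe sets of Tgfbr1, Bmpr1a, Tgfb2 and Smad4 did not share this.

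Both Smad1 probe sets were higher in litter 3. Probe set 1416081_at had 212 in knockout and 248 in wildtype replicate 3, against 147 and 137 in replicate 1, and 1448208_at differed alike, by 0.49 in knockout and 0.70 in wildtype mice on the log2 scale. Smad4 1422487_at was higher by 0.79 and 0.76, Tgfb3 by 0.70 and 0.54 and Inhbb 1426858_at by 0.31 and 0.66. The other Inhbb probe set, 1426859_at, did not pass the filter and went the other way, by -1.02 in knockout and -1.77 in wildtype mice. Both Smad5 probe sets were lower in litter 3, 1421047_at by -0.41 in knockout and -0.37 in wildtype mice, and Smad2 by -0.37 and -0.57. Probe sets of a gene did not always go together here either. Tgfbr1 1420894_at differed by -2.78 and -1.86 and 1420893_a_at by -1.61 and -1.04, whereas the bright 1420895_at differed by 0.28 and -0.20. Tgfb2 1450923_at differed by -0.82 in both genotypes and 1450922_a_at by 0.24 and 0.34. Bmpr1a 1425491_at differed by -1.40 and -1.49 and the brighter 1425492_at by -0.31 and 0.17.

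Outside the filter, 49 member probe sets were dim in most arrays, and some separated the groups. Over all 78 member probe sets, 3 were higher in every knockout than in every wildtype array (3.85%, against 4.62% of all 22626 probe sets) and 3 were lower (3.85%, against 3.07%), of which 1 was the Tgfb2 probe set above. Both shares were near the background. A difference of at least 0.5 on the log2 scale in all 3 pairs was found for 4 with higher knockout values (5.13%, against 3.1% of all 22626), namely Gdf3, Inhbc, Bmp8a and Bmp15, and for 2 with lower ones (2.56%, against 0.773%), namely Inhba and Bmp7 1432410_a_at. Of the 78, 6 (7.69%) differed by 2 or more in pair 1 and 8 (10.3%) in pair 3, all of them dim probe sets outside the filter. The same share over all 22626 probe sets was not counted, so nothing about the members is read from these 2 counts. The other 5 probe sets whose groups did not overlap, named here after their values were seen, were below the array median in all 6 arrays.

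Inhba, the beta-A subunit of activin and inhibin, had 1.401, 5.45 and 5.89 in knockout and 14.3, 22.7 and 33.4 in wildtype mice. Bmp7 1432410_a_at had 3.40, 7.01 and 2.35 in knockout and 12.4, 16.6 and 13.01 in wildtype mice. The brighter Bmp7 probe set 1435479_at had 27.2, 152 and 51.4 in knockout and 60.8, 49.96 and 35.9 in wildtype mice, which overlapped. Inhbc had 7.81, 33.5 and 17.7 in knockout and 1.54, 3.36 and 3.33 in wildtype mice. Bmp8a had 13.8, 9.35 and 12.2 in knockout and 3.08, 5.22 and 3.55 in wildtype mice, and Bmp15, best known from oocytes, 4.30, 5.45 and 15.1 in knockout and 1.36, 2.46 and 0.645 in wildtype mice. In a fit without the filter, these 5 of 78 members (6.41%) had an unadjusted p under 0.05, against 547 of 22626 probe sets (2.42%), the limma adjusted p of each was 0.84, and Inhba had a change of -2.29 (SE 0.58, n = 3 for each group). Without the filter and without knockout replicate 2, the smallest limma adjusted p of a member was 0.28, for Bmp7 1432410_a_at with a change of -1.95 (SE 0.26), and 0 of 22626 probe sets passed, while 9 members (11.5%, against 3.58% of all) had an unadjusted p under 0.05.

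**Figure D5:**
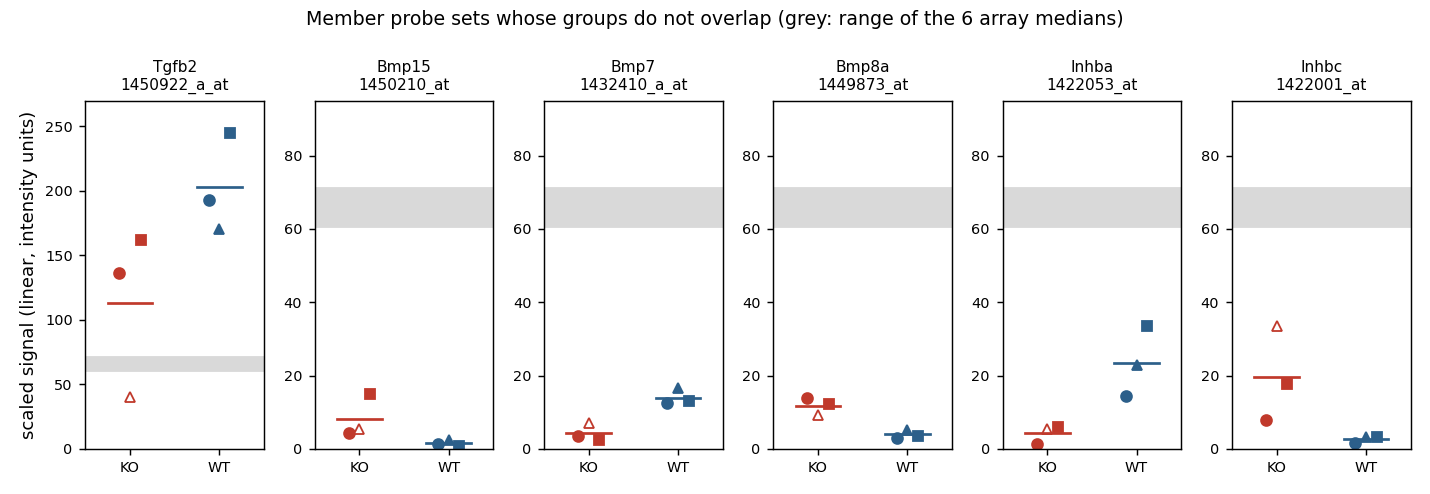
Scaled signal (y axis, linear) of the 6 member probe sets whose knockout (red, left) and wildtype (blue, right) values did not overlap, with bars at the group means and knockout replicate 2 as open triangles. Tgfb2 1450922_a_at has its own y scale, and the other 5 lie below the grey band, the range of the 6 array medians from 60.4 to 71.2.

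Other genes of the pathway were not called either. Of 46 measured genes outside the rule, 26 passed the filter with 44 probe sets, and 0 were called higher or lower by limma, with 0 at an unadjusted p under 0.05. Their median change was -0.27, or -0.06 without knockout replicate 2. Direct targets of BMP or TGF-beta Smads had a median of -0.31 over 9 probe sets, and -0.03 without that array. Id4 1423259_at, of an inhibitor of helix-loop-helix factors, had 361, 61.5 and 288 in knockout and 479, 445 and 246 in wildtype mice, and Id2 1435176_a_at had 646, 78.7 and 654 in knockout and 651, 679 and 798 in wildtype mice. In both probe sets, knockout replicate 2 was far below all others. Another Id4 probe set, 1423260_at, had 193, 2086 and 125 in knockout and 170, 226 and 244 in wildtype mice, with knockout replicate 2 far above all others. Secreted regulators had a median of -0.20 over 11 probe sets, or -0.09 without that array. Their smallest p belonged to Thbs1 1460302_at, of an activator of latent TGF-beta, with 110, 3.12 and 65.5 in knockout and 119, 128 and 72.6 in wildtype mice, and to Sostdc1, a BMP antagonist, with 48.4, 21.0 and 85.1 in knockout and 73.4, 47.8 and 93.0 in wildtype mice. The other tested Thbs1 probe set, 1450377_at, had 81.5, 76.4 and 62.9 in knockout and 89.9, 90.2 and 34.2 in wildtype mice, with a change of 0.16.

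Intracellular mediators had a median of -0.32 over 24 probe sets, or -0.06 without knockout replicate 2. Tab1, a partner of the kinase TAK1, had 117, 245 and 92.5 in knockout and 72.2, 91.3 and 91.1 in wildtype mice. Its change was 0.71 (SE 0.43, limma adjusted p = 0.75). Every knockout value was higher, though narrowly (92.5 against 91.3), as for 2.65% of all probe sets tested. Fkbp1a 1448184_at, of a protein that binds type I receptors and holds them inactive, had 792, 216 and 603 in knockout and 925, 748 and 737 in wildtype mice, with the groups overlapping through knockout replicate 1, and a change of -0.77 (SE 0.53, limma adjusted p = 0.75). The changes were 0.30 and -0.21 without knockout replicate 2. Of the other 3 tested Fkbp1a probe sets, 1416036_at had a change of -2.06, and 1438958_x_at and 1456196_x_at had 0.32 and 0.13, with knockout replicate 2 the highest array in both.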

How the data were processed

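The authors made 1 linear intensity per probe set and array with the MAS5 algorithm and deposited it without a common scale, with deposited array medians from 9 to 95.5. Each array was scaled here to a trimmed mean (2% off each end) of 200, and 1 was added before log2. Symbols came from the platform's probe table, which gave 1 symbol for 20380 probe sets and several for 691, and did not list 1555. Probe sets above the array median in at least 3 of 6 arrays were fitted with limma 3.58.1 in R 4.3.3, knockout against wildtype, with Benjamini-Hochberg adjustment. The scripts were tested on simulated data. No counts apply to arrays. SDs are the spread between 3 arrays of a group. SEs of changes are those of limma, which draws the variance of each probe set towards a value pooled over all probe sets. Fits without knockout replicate 2 had 1 knockout array fewer. The members and lists were chosen with earlier results of these data known. Values in every array are given for the 5 tested member probe sets of smallest p in each direction and for the brightest wildtype probe set of each role, and other pathway genes by the 2 of smallest p per list. The series design pairs littermates by number. After group means were removed, arrays of the same number correlated at 0.29, -0.14 and 0.18 in pairs 1, 2 and 3, while knockout 1 had 0.38 with wildtype 2 and knockout 2 had 0.16 with wildtype 3. Lists of pigment epithelium, ciliary body and mesenchyme, microglia and blood, and astrocyte markers were also summed. In each array 6 of 8 pigment markers were above the median, though in knockout replicate 2 Slc45a2 was among them in place of Tyrp1. Per array, 0 to 4 of 8 ciliary and mesenchymal markers (4 in wildtype replicate 1), 2 to 4 of 7 microglial and blood markers and 1 to 3 of 4 astrocyte markers were above it.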

Additional observations from a re-analysis of the deposited data

How the results depend on the processing

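No probe set was called under any setting tried, with limma: other normalizations, no filter or a stricter one, a constant of 16, array weights (whose estimate stopped before it converged), an intensity trend, the replicate block or leaving out any array. With the replicate block (littermate pairs) 0 probe sets and 0 members were called, and the median change of the members was -0.31. The median ran from -0.44 to 0.02 when single arrays were left out, with the highest value without knockout replicate 2, and was -1.49 on signals as deposited, where all probe sets tested had a median of -1.38. Above the 25th percentile, 30 genes passed in place of 15. A fit without the filter and without knockout replicate 2 was chosen after seeing the data.

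Single probe sets changed sign as follows, on log2(scaled signal + 1), and the cause was not tested. On signals as deposited, Bambi had -0.96, Smad4 1422486_a_at -0.54, Fstl1 1416221_at -0.79 and Tgfbr1 1420893_a_at -0.86. With quantile normalization, Tgfb2 1423250_a_at had 0.012 and Acvr2a 0.038, and centred on the 75th percentile Tgfb2 1423250_a_at 0.049, Acvr2a 0.034 and Smad1 1448208_at 0.029. With array weights, Smad1 1448208_at had 0.33, Fstl1 1416221_at -0.69, Tgfbr1 1420893_a_at -0.87, Tgfbr1 1420895_at 0.037 and Acvr2a 0.23. Leaving out single arrays gave ranges of -0.013 to 1.09 for Smad4 1422486_a_at, -0.41 to 0.092 for Tgfb2 1423250_a_at, -0.30 to 0.14 for Smad1 1448208_at, -0.47 to 0.97 for Fstl1 1416221_at, -0.12 to 0.94 for Tgfbr1 1420893_a_at and -0.38 to 0.17 for Acvr2a. Without knockout replicate 2 and with quantile normalization, these 6 had -0.014, 0.072, 0.0058, -0.48, -0.065 and 0.18. Without knockout replicate 2 and with the replicate block, Smad4 1422486_a_at had -0.058, Tgfb2 1423250_a_at 0.23, Smad5 1451873_a_at 0.14, Fstl1 1416221_at -0.50 and Acvr2a 0.24. Without the filter and without knockout replicate 2, the 6 had -0.013, 0.092, 0.017, -0.47, -0.097 and 0.17.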
